A study of Mus musculus with 6 samples.

Results

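The 38 genes described here encode the enzymes, carriers and regulators of mitochondrial and peroxisomal fatty acid oxidation in mouse liver, taken by symbol from a list of these steps and each found once among 55536 genes in the table. By the known site of action of their products, 17 were counted as mitochondrial, 13 as peroxisomal, 3 as acting in both organelles and 5 as acting elsewhere. Fatty acid oxidation shortens acyl chains by removing acetyl units in repeated rounds of dehydrogenation, hydration, a further dehydrogenation and thiolytic cleavage. Mitochondria carry out most of it in liver, after long chains have been joined to coenzyme A and ferried in as carnitine esters. Peroxisomes run a parallel route with their own oxidases and thiolases, which starts very long, branched and bile acid precursor chains. The nuclear receptor PPARalpha is the best known activator of genes of both routes in hepatocytes.

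The study profiled liver RNA from 6 samples of C57BL/6 mice aged 8 to 10 weeks, all carrying floxed Vmp1 alleles. The product of this gene, VMP1, sits in the endoplasmic reticulum membrane and takes part in autophagy and lipoprotein release. In the 3 samples labelled H-VMP1 KO, an intravenous AAV8 virus delivered Cre recombinase under the hepatocyte promoter TBG, and in the 3 samples labelled WT the same type of virus carried no transgene. Livers were taken 2 weeks after the virus, and cells without TBG activity keep their alleles. The comparison asks how liver expression changes when hepatocyte Vmp1 is targeted, and the members are read in it as mitochondrial against peroxisomal steps. Values are TPM, a transcript abundance corrected for length and summing to a fixed total per library, which keeps no read number, so the depth behind a value is unknown. Fold changes are log2(TPM + 1) differences, H-VMP1 KO minus WT, ± SE with n = 3 libraries per group. A gene is said to have risen or fallen when limma's Benjamini-Hochberg adjusted p over all 12796 tested genes was under 0.05, and is otherwise not called. Nothing in the labels states that each library is a different mouse. The p-values therefore refer to variation among these 6 samples, part of which could be technical. Adding 1 TPM before taking logs understates the change of genes with low values.

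Vmp1 itself was not called lower in the libraries labelled knockout under TPM as deposited, median-of-ratios scaling, quantile normalization or the rescaling given below. It was at 157, 136 and 137 TPM in the libraries labelled H-VMP1 KO, against 70.7, 96.5 and 88.6 TPM in the WT libraries, and the groups did not overlap. Its log2 fold change was 0.75 ± 0.13 as deposited (limma adjusted p = 0.000377) and -0.16 (adjusted p = 0.252) under median-of-ratios scaling. It was 0.23 with quantile normalization (adjusted p = 0.0723). With TPM rescaled without mitochondrially encoded, Mup and the 20 most abundant genes, it was 0.37 (adjusted p = 0.0129). So its sign depended on the scaling, and it was called higher as deposited and as rescaled. The table has 1 value per gene and cannot show which exons were read, so it does not check the deletion. The term labelled knockout is used for these libraries below, and every direction given rests on that label. Most genes were higher there as deposited: 74.5% of tested genes rose and 10.7% fell, and the median log2 fold change of all tested genes was 0.77. With median-of-ratios scaling, under which the typical gene is taken as unchanged, log2 fold changes moved by -0.81 at the median, and 36.2% of tested genes were higher and 35.6% lower. A fall as deposited is therefore a fall against a background that mostly rose, and the rises of members are given with the other scaling too.

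Hepatocyte markers were abundant in every library, and markers of other liver cell types rose in the labelled knockout. Of 13 hepatocyte markers in the table, 9 fell and 1 rose, where 10.7% of all tested genes fell and 74.5% rose. They summed to 38094 to 41031 TPM in the labelled knockout, against 62268 to 82439.9 TPM in WT. With median-of-ratios scaling 12 of them were lower and 1 higher, where 35.6% of all tested genes were lower. With quantile normalization 9 were lower and 1 higher, where 35.4% were lower. All 16 macrophage markers rose, with sums of 1749.9 to 2257 TPM in the labelled knockout against 167 to 279 TPM in WT, as did all 12 endothelial (238 to 289 TPM in the labelled knockout against 75.8 to 86 TPM in WT) and all 12 stellate cell markers (332 to 385 TPM in the labelled knockout against 62 to 66.9 TPM in WT). Of the tested markers of smaller populations, 4 of 5 for cholangiocytes, 2 of 2 for T and NK cells, 3 of 4 for B cells and 3 of 3 for neutrophils rose, where 74.5% of all tested genes did. These lists held 8, 10, 6 and 8 markers, and the rest did not reach 1 TPM in at least 3 libraries. A marker low in WT could pass this filter through the labelled knockout alone, which favours rises. The counts of these small lists, at any scaling, are therefore descriptions only. With median-of-ratios scaling, where 36.2% of tested genes were higher, 16 of 16 macrophage, 9 of 12 endothelial, 12 of 12 stellate, 4 of 5 cholangiocyte (with 1 lower), 2 of 2 T and NK cell, 3 of 4 B cell and 3 of 3 neutrophil markers were higher. With quantile normalization, where 35.3% were higher, the counts were 15 of 16, 9 of 12, 12 of 12, 3 of 5, 1 of 2, 1 of 4 and 3 of 3. For cholangiocytes, T and NK cells, B cells and neutrophils in turn, the sums were 131 to 182 TPM in the labelled knockout against 25.8 to 38.3 TPM in WT, 9.75 to 15.6 TPM in the labelled knockout against 1.4 to 1.67 TPM in WT, 34.9 to 36.4 TPM in the labelled knockout against 3.06 to 7.41 TPM in WT and 25 to 55.2 TPM in the labelled knockout against 1.9 to 3.15 TPM in WT. Of 2 tested adipocyte markers 1 rose (sums of 7.87 to 17.6 TPM in the labelled knockout against 3.13 to 10.7 TPM in WT), Lep was listed at 0, and 0 of 8 muscle markers reached the filter, with Myh4, Mb and Nppa listed at 0. The part of this shift in the results below was not tested. In bulk liver, fewer cells of a type and less RNA per cell cannot be told apart.

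Most fatty acid oxidation genes fell in the labelled knockout. All 38 passed the filter of at least 1 TPM in at least 3 libraries, 26 fell, 4 rose and 8 were not called, against 10.7% lower, 74.5% higher and 85.2% called in either direction over all tested genes. Their median log2 fold change was -0.64, where that of all tested genes was 0.77 and that of the 13 hepatocyte markers -0.98. With median-of-ratios scaling it was -1.54 for the members and -1.90 for the hepatocyte markers. The groups did not overlap for 29 of the 38, against 86.8% of all tested genes (75.5% apart with the labelled knockout higher and 11.3% with it lower). With median-of-ratios scaling 34 were lower and 2 higher, where 35.6% and 36.2% of all tested genes were (71.8% called in all). The lower genes under this and the following scalings include Acot3, which would not have passed the filter without its WT libraries. With quantile normalization 34 were lower and 3 higher, where 35.4% and 35.3% were (70.8% in all). With TPM rescaled after mitochondrially encoded, Mup and the 20 most abundant genes were left out, 32 were lower and 3 higher, where 17.5% and 60.3% were (77.8% in all). Of the 30 called genes, 26 kept their call and direction under all 16 alternatives, 24 of them lower and 2 higher. The 2 that stayed higher were Ehhadh and Acot2. The members together took 0.326 to 0.365% of the library in the labelled knockout, against 0.625 to 0.71% in WT.

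**Figure D1:**
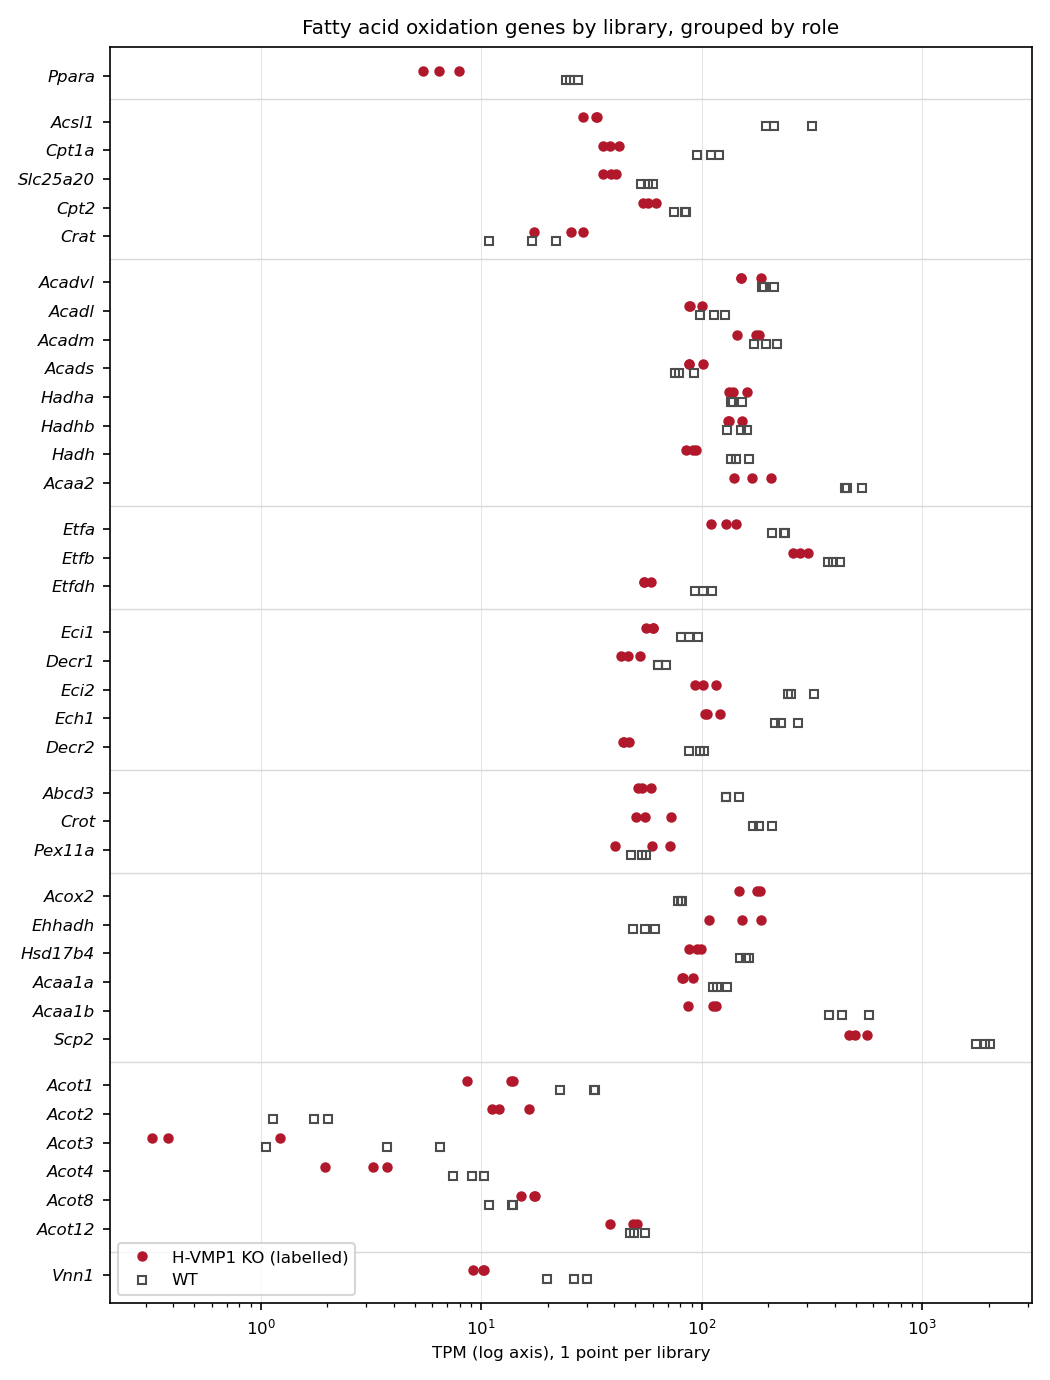
Abundance of the 38 fatty acid oxidation genes in each library, as TPM on a log axis, with 3 labelled H-VMP1 KO libraries (filled circles, upper row of each gene) and 3 WT libraries (open squares, lower row), grouped by role. Most filled circles lie left of the squares of their gene, while those of Acox2, Ehhadh, Acot2 and Acot8 lie right of them, and the points of Hadha and Hadhb overlap.

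The promoter windows of the members held GC boxes in a larger share than those of all coding genes. The members all passed the expression filter, while the coding genes were not limited to those expressed in liver. A comparison with expressed genes only was not made. A full DR1 element, the site of the PPARalpha pair, was in none of 33, but only 0.423% of coding genes had it. A search of so few genes for so rare a motif cannot show a lack of it. RefSeq (GRCm38.p6) windows from 250 bases before to 50 bases after the annotated start were found for 33 of the 38 genes, and Acaa2, Crat, Decr1, Hsd17b4 and Vnn1 had none in the table. Motifs were searched on both strands. The GC box GGGCGG was in windows of 24 of 33 genes (72.7%), against 49.2% of 17491 protein-coding genes, and the TATA box TATAAA in 1 of 33 (3.03%) against 14.8%. The CCAAT box CCAAT was in 17 of 33 (51.5%) against 42.3%. Median GC content of the windows was 58% for the members and 56.3% for coding genes. The nuclear receptor hexamer AGGTCA was in 7 of 33 (21.2%) against 16.7%. The DR1 element, searched as a pair of AGGNCA copies in the same direction with 1 base between, was in 0 of 33 windows against 0.423%, its core CAAAGGTCA, which contains that hexamer, in 1 (Acot4) against 0.497%, the estrogen-related receptor site TCAAGGTCA, which also contains it, in 0 against 0.377%, and the E box CACGTG in 1 (3.03%) against 8.91%. A window without these letters says nothing of sites further away.

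The transcript of PPARalpha itself fell. Ppara (ENSMUSG00000022383, GRCm38 chromosome 15, 85734983 to 85802819), the receptor that senses fatty acids, was at 6.4, 5.45 and 7.88 TPM in the labelled knockout, against 24.1, 27.6 and 25.3 TPM in WT. The groups lay far apart, with the labelled knockout mean at 25.6% of WT. Its log2 fold change was -1.83 ± 0.13 with adjusted p = 1.12e-06 (limma), and 2.24% of tested genes had a fold change that low. Vnn1, a pantetheinase of the hepatocyte surface long used as a marker of PPARalpha activity in mouse liver, was at 9.13, 10.3 and 10.2 TPM in the labelled knockout, against 30.0, 26.2 and 19.9 TPM in WT. It fell by 1.26 on the log2 scale, with adjusted p = 2.45e-05.

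Activation and entry into mitochondria fell in 4 of 5 genes, against 10.7% of all tested genes, and most of all at the first step. Acsl1 (ENSMUSG00000018796, chromosome 8, 46471037 to 46536051), the main long-chain acyl-CoA synthetase of liver, was at 28.9, 33.3 and 33.1 TPM in the labelled knockout, against 317, 196 and 213 TPM in WT. This was the largest decrease of the 38 genes, at -2.86 ± 0.17 on the log2 scale (adjusted p = 9.33e-07). Cpt1a, the outer-membrane carnitine palmitoyltransferase that controls the rate of entry, was at 35.7, 42 and 38.4 TPM in the labelled knockout, against 109.5, 119 and 94.8 TPM in WT (log2 fold change -1.45 ± 0.11, adjusted p = 1.97e-06). The groups were wide apart for both genes. The carrier Slc25a20, which moves acylcarnitine across the inner membrane, was at 38.6, 35.5 and 40.7 TPM in the labelled knockout, against 60.2, 57 and 53 TPM in WT and fell by 0.56. The inner-membrane transferase Cpt2, which returns the chain to coenzyme A, was at 54, 57.2 and 61.7 TPM in the labelled knockout, against 83.5, 84.3 and 74.5 TPM in WT and fell by 0.48. The decreases were smaller at these later steps, and within each library Cpt1a stood at 0.662, 0.733 and 0.622 times Cpt2 in the labelled knockout, against 1.31, 1.41 and 1.27 times in WT. Crat, which makes short-chain carnitine esters in both organelles, overlapped between groups at 25.6, 17.3 and 28.9 TPM in the labelled knockout and 21.9, 17 and 10.8 TPM in WT, and was not called (0.53 ± 0.29, adjusted p = 0.13). Without WT replicate 1, Crat was at 0.74 and called (adjusted p = 0.0388), and without WT replicate 3 it was at 0.26.

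A later Acsl1 start in RefSeq has a window (chr8:46490716-46490965, plus strand) with 0 GC boxes and 2 CCAAT boxes, which is not shown. The window before the first of the Acsl1 starts (chr8:46470787-46471036, plus strand) is shown because Acsl1 had the largest decrease and this window holds 4 GC boxes, set in capitals.
Acsl1: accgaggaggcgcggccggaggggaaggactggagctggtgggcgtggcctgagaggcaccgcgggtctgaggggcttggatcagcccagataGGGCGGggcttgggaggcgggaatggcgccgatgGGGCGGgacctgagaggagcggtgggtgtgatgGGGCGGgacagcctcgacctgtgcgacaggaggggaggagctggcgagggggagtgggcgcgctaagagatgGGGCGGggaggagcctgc

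In the mitochondrial spiral 4 of 8 genes fell and 4 were not called, where 10.7% of all tested genes fell and 74.5% rose. With median-of-ratios scaling all 8 were lower, against 35.6% of all tested genes. The median log2 fold change as deposited was -0.25, and the last thiolase fell most. Acaa2, the mitochondrial 3-ketoacyl-CoA thiolase, was at 140.0, 205 and 169.5 TPM in the labelled knockout, against 446, 530.3 and 455 TPM in WT. The groups lay far apart. Its log2 fold change was -1.48 ± 0.15 with adjusted p = 9.85e-06. Hadh, the medium- and short-chain 3-hydroxyacyl-CoA dehydrogenase, was at 84.7, 91.2 and 94 TPM in the labelled knockout, against 143, 164 and 135 TPM in WT, and fell by 0.70 (adjusted p = 0.000156). The very long-chain and long-chain dehydrogenase genes Acadvl and Acadl had small decreases close to the threshold. Acadvl was at 149.9, 151 and 186 TPM in the labelled knockout, against 186, 213 and 190.5 TPM in WT, a fold change of -0.28 ± 0.12 with adjusted p = 0.0493. Acadl was at 87, 88.7 and 100.4 TPM in the labelled knockout, against 113, 128 and 98.6 TPM in WT, -0.29 ± 0.12 with adjusted p = 0.0418, and its groups overlapped. Without 1 library the adjusted p reached 0.175 for Acadvl and 0.13 for Acadl, with the call lost on leaving out any but labelled knockout replicate 3 for Acadvl, and any but that replicate and WT replicate 3 for Acadl. Acadvl also shares 42.9% of its annotated exon bases with Dvl2 on the opposite strand, at 3.57 TPM in the labelled knockout and 1.47 TPM in WT.

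The trifunctional protein and the medium- and short-chain dehydrogenases were not called. Hadha, which encodes its hydratase and dehydrogenase subunit, was at 132, 138 and 161 TPM in the labelled knockout and 139, 153 and 136 TPM in WT, a fold change of 0.01 ± 0.11 (adjusted p = 0.94). Hadhb, its thiolase subunit, was at 131, 133 and 153 TPM in the labelled knockout and 151, 161 and 129.5 TPM in WT, a fold change of -0.08 ± 0.12 (adjusted p = 0.534). The groups overlapped for both, and the ratio of Hadha to Hadhb stayed between 1.01 and 1.05 in the labelled knockout and between 0.922 and 1.05 in WT. Acadm and Acads, for medium and short chains, had fold changes of -0.22 ± 0.13 and 0.17 ± 0.11 with overlapping groups. With median-of-ratios scaling all 4 were lower, from -0.99 for Hadhb, -0.90 for Hadha and -0.74 for Acads to -1.14 for Acadm, so their place near no change holds for TPM as deposited only.

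In RefSeq, Hadha and Hadhb start 273 bases apart on opposite strands, and their windows share 228 bases. The stretch before the Hadhb start (chr5:30155003-30155252, plus strand) lies between these RefSeq starts and is shown because the windows of this uncalled pair share most of it. By the GENCODE positions the starts are closer and part of the stretch lies within Hadha. It is printed with its GC boxes, 2 in number, in capitals.
Hadhb: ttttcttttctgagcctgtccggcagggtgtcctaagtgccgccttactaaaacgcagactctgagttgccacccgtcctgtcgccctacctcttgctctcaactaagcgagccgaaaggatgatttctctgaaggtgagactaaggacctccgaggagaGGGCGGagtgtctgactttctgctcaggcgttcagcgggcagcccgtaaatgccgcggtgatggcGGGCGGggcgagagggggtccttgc

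Electron transfer from the dehydrogenases fell in all 3 of its genes, where 10.7% of all tested genes fell. Etfa, the alpha subunit of electron transfer flavoprotein, was at 110.4, 143 and 129 TPM in the labelled knockout, against 239, 237 and 209 TPM in WT. Its partner subunit Etfb was at 259, 303 and 277 TPM in the labelled knockout, against 372, 421 and 394 TPM in WT. Etfdh, which passes the electrons to ubiquinone, was at 54.8, 54.6 and 58.6 TPM in the labelled knockout, against 112, 101 and 93 TPM in WT. The groups did not overlap in any of the 3, and the log2 fold changes were -0.84 ± 0.12, -0.50 ± 0.11 and -0.85 ± 0.10 in that order, with adjusted p from 2.84e-05 to 0.00179.

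All 5 auxiliary enzymes for unsaturated chains fell, where 10.7% of all tested genes did, and more strongly for those with a peroxisomal role. Eci2, an enoyl-CoA isomerase of peroxisomes and mitochondria, was at 101, 92.6 and 116 TPM in the labelled knockout, against 254, 322 and 245 TPM in WT (log2 fold change -1.39 ± 0.13, adjusted p = 7.57e-06). Ech1, a dienoyl-CoA isomerase of both organelles, was at 106, 104 and 121 TPM in the labelled knockout, against 228, 273 and 216 TPM in WT (-1.11 ± 0.12, adjusted p = 1.70e-05). Decr2, the peroxisomal dienoyl-CoA reductase, was at 44.4, 46.7 and 44.1 TPM in the labelled knockout, against 98.1, 103 and 87.2 TPM in WT (-1.07 ± 0.10, adjusted p = 5.02e-06). All 3 labelled knockout values were under the WT values for each of these genes. The mitochondrial isomerase Eci1 and reductase Decr1 fell by 0.57 and 0.46, with adjusted p of 0.000388 and 0.00222. The difference between the organelles in the size of these decreases has no test here.

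Peroxisomal entry and exit genes fell, while the division factor Pex11a was not called. Crot, which converts shortened acyl chains to carnitine esters for export, was at 50.5, 72.2 and 55 TPM in the labelled knockout, against 207, 171 and 182 TPM in WT (log2 fold change -1.65 ± 0.14, adjusted p = 3.74e-06). Abcd3, a transporter of branched and long-chain acyl-CoA in the peroxisomal membrane, was at 51.2, 53.7 and 58.8 TPM in the labelled knockout, against 148, 129 and 128 TPM in WT (-1.29 ± 0.10, adjusted p = 2.16e-06). Each labelled knockout value lay below each WT value in both genes. Pex11a, which takes part in peroxisome elongation and division and is a PPARalpha target in mouse, was at 59.7, 40.5 and 71.7 TPM in the labelled knockout and 56, 53.8 and 47.8 TPM in WT, with overlapping groups and a fold change of 0.09 ± 0.19 (adjusted p = 0.68). It was 0.31 without labelled knockout replicate 2 (adjusted p = 0.0354) and -0.09 without replicate 3.

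In the peroxisomal spiral 2 genes rose and 4 fell as deposited, where 74.5% of all tested genes rose and 10.7% fell. With median-of-ratios scaling 1 was higher, 4 were lower and 1 was not called. Under that scaling 36.2% of all tested genes were higher and 35.6% lower. Ehhadh (ENSMUSG00000022853, chromosome 16, 21761287 to 21787807), the L-bifunctional enzyme that hydrates and dehydrogenates straight chains and dicarboxylic acids, was at 185, 108 and 152 TPM in the labelled knockout, against 61.2, 55.3 and 48.8 TPM in WT. All 3 labelled knockout values were above the WT values, with replicate 2 the lowest of them. Its log2 fold change was 1.38 ± 0.19 with adjusted p = 0.000148, and 0.48 with adjusted p = 0.0332 after median-of-ratios scaling. Acox2 (ENSMUSG00000021751, chromosome 14, 8225511 to 8259353), the branched-chain oxidase that shortens bile acid precursors, was at 177, 147 and 184 TPM in the labelled knockout, against 81.2, 80.5 and 78.3 TPM in WT. The groups were well separated and the WT values nearly equal. Its fold change was 1.07 ± 0.11 with adjusted p = 1.11e-05, and 0.16 with adjusted p = 0.143, no longer called, after median-of-ratios scaling. It stayed called at 0.57 with quantile normalization (adjusted p = 0.000988) and at 0.68 with the rescaled values (adjusted p = 0.000247). Both rises are to be read against the median of 0.77 over all genes: 78.7% of tested genes had a fold change up to that of Ehhadh, and 66.0% up to that of Acox2. By mean TPM, Acox2 was rank 4 of the 38 genes in the labelled knockout and rank 25 in WT, and Ehhadh was rank 7 in the labelled knockout and rank 28 in WT.

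The remaining 4 genes of the peroxisomal spiral fell, where 10.7% of all tested genes did. Scp2 (ENSMUSG00000028603, chromosome 4, 108043839 to 108144998), whose products are the branched-chain thiolase SCPx and sterol carrier protein 2, was at 466, 562 and 497 TPM in the labelled knockout, against 2028, 1923 and 1750.0 TPM in WT. It was the most abundant of the 38 genes in both groups and its 1 gene value does not separate its products. Its fold change was -1.90 ± 0.12 with adjusted p = 6.72e-07. Acaa1b, a peroxisomal 3-ketoacyl-CoA thiolase, was at 86.9, 112 and 115 TPM in the labelled knockout, against 572, 433 and 379 TPM in WT (-2.12 ± 0.17, adjusted p = 3.40e-06), and its paralog Acaa1a at 81.8, 81.5 and 91 TPM in the labelled knockout, against 113, 130.4 and 117 TPM in WT (-0.50 ± 0.10, adjusted p = 0.00108). The decrease was thus larger for Acaa1b, and their ratio within a library was 1.06, 1.38 and 1.27 in the labelled knockout, against 5.08, 3.32 and 3.23 in WT. Their longest transcripts are 95% identical over 1509 aligned bases and share 34% of the 50-base runs of Acaa1a, so the split of reads between them is uncertain. Hsd17b4, the D-bifunctional enzyme for branched and very long chains, was at 87.8, 95.5 and 99.5 TPM in the labelled knockout, against 163, 158 and 149.7 TPM in WT (-0.73 ± 0.10, adjusted p = 6.09e-05).

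Windows before the RefSeq starts of the peroxisomal spiral genes that rose, Ehhadh and Acox2, are shown for comparison, with GC and CCAAT boxes in capitals (a CCAAT box on the other strand reads ATTGG). That of Ehhadh (chr16:21787835-21788084, minus strand) holds 2 GC boxes and 1 CCAAT box. Acox2 has a pair of overlapping windows, both within the gene as GENCODE places it. The upstream one holds neither box and is not shown, and the downstream one (chr14:8258840-8259089, minus strand) holds 1 CCAAT box and no GC box.
Ehhadh: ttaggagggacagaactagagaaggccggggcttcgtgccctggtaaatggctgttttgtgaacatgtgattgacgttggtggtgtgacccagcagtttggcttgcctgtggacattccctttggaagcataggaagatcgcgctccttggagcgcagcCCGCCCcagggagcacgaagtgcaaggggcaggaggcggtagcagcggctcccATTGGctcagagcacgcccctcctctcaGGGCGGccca
Acox2: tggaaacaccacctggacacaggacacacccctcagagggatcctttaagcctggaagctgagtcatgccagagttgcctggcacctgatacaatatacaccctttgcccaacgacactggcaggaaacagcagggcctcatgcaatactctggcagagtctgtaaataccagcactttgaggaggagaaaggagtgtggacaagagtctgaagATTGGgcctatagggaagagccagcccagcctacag

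**Figure D2:**
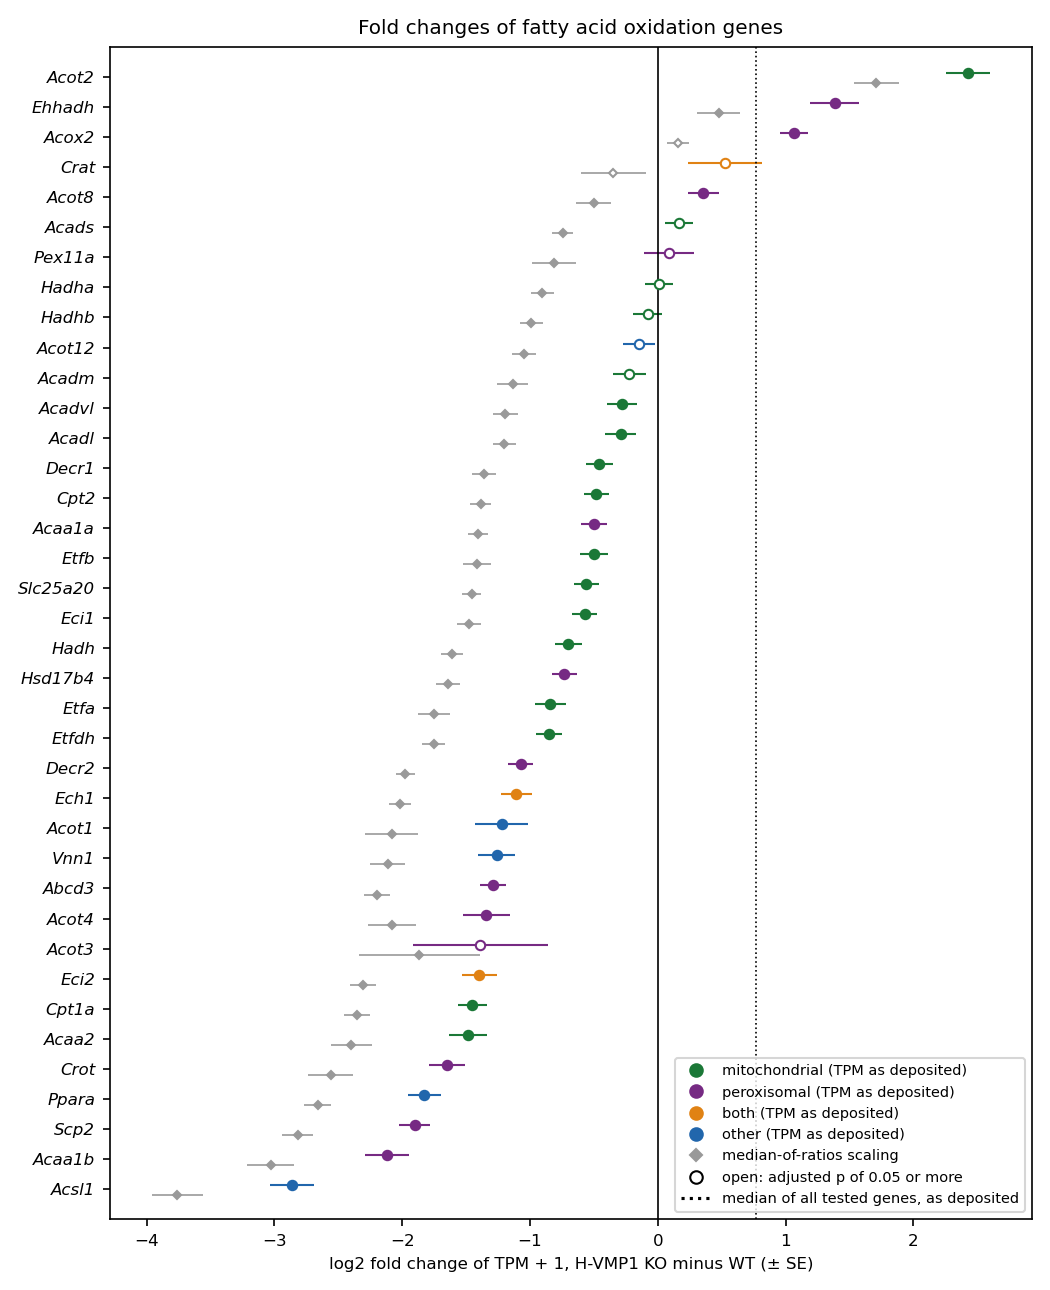
Log2 fold changes (± SE, H-VMP1 KO minus WT) of the 38 genes with TPM as deposited (circles, coloured by organelle, open where adjusted p was 0.05 or more) and with median-of-ratios scaling (grey diamonds). The dotted line marks the median of all tested genes as deposited (0.77); Acot2, Ehhadh and Acox2 lie right of it, and 35 genes lie left of it.

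Acyl-CoA thioesterases, which free fatty acids from coenzyme A, went both ways. Acot2 (ENSMUSG00000021226, chromosome 12, 83987861 to 83993873), the mitochondrial long-chain enzyme, was at 11.1, 12 and 16.4 TPM in the labelled knockout, against 2.02, 1.74 and 1.13 TPM in WT. This was the largest increase of the 38 genes, 2.43 ± 0.17 with adjusted p = 1.61e-06, and 1.71 after median-of-ratios scaling. Its cytosolic neighbour Acot1 was at 8.62, 14 and 13.6 TPM in the labelled knockout, against 32.3, 32.8 and 22.6 TPM in WT and fell by 1.22 (adjusted p = 0.000635). So the pair moved in opposite directions, with Acot2 at 1.29, 0.861 and 1.2 times Acot1 within the labelled knockout libraries, against 0.0625, 0.053 and 0.0499 times in WT. Their longest transcripts are 94.3% identical over 1330 aligned bases and share 23.9% of the 50-base runs of Acot1, so reads from the shared stretches cannot be assigned with certainty. Acot4, a peroxisomal enzyme for dicarboxylic acids in mouse, was at 1.96, 3.72 and 3.22 TPM in the labelled knockout, against 10.3, 9.07 and 7.44 TPM in WT and fell by 1.34 (adjusted p = 0.000123). Acot3, also peroxisomal, was at 0.32, 1.22 and 0.38 TPM in the labelled knockout and 3.74, 6.46 and 1.05 TPM in WT with overlapping groups, and was not called (adjusted p = 0.0534). Acot8, a peroxisomal enzyme of wide range, was at 17.6, 15.1 and 17.3 TPM in the labelled knockout, against 14, 10.8 and 13.7 TPM in WT and rose by 0.36 (adjusted p = 0.0197). The rise of Acot8 is below the median of all genes, was -0.50 under median-of-ratios scaling, and lost its call without WT replicate 2 or labelled knockout replicate 1 or 3 (adjusted p up to 0.0632). Acot12, a cytosolic acetyl-CoA hydrolase, overlapped between groups and was not called (-0.14 ± 0.12, adjusted p = 0.291).

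The 4 clustered genes Acot1 to Acot4 lie close together on chromosome 12. The window of Acot2 (chr12:83987611-83987860, plus strand), the gene that rose, holds 1 CCAAT box, and that of Acot4 (chr12:84038129-84038378, plus strand), which fell, holds 1 CCAAT box and the only DR1 core of the 33 genes, on the other strand. Both are shown with these motifs in capitals.
Acot2: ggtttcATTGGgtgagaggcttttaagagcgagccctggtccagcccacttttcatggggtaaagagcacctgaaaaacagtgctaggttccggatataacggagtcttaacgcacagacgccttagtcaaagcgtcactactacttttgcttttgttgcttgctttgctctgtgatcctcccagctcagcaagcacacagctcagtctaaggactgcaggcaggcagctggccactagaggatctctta
Acot4: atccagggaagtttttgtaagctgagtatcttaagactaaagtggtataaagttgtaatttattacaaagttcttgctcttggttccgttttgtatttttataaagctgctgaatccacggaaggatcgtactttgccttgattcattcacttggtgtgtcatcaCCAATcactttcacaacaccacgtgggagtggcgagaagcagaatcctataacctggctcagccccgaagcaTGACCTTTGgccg

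Set side by side, 8 of 13 peroxisomal genes fell and 3 rose, and 12 of 17 mitochondrial genes fell and 1 rose, against 10.7% lower and 74.5% higher of all tested genes. The median log2 fold change was -1.07 for peroxisomal and -0.48 for mitochondrial genes, and the ranges, -2.12 to 1.38 and -1.48 to 2.43, overlapped widely. With median-of-ratios scaling 11 peroxisomal genes, Acot3 among them, were lower and 1 higher, and 16 mitochondrial genes were lower and 1 higher. Of all tested genes 35.6% were lower and 36.2% higher under that scaling. The peroxisomal share of the summed TPM of both sets, which no single factor per library can alter, was 44.7, 42.3 and 42.5% in the labelled knockout, against 57.9, 53.5 and 54.9% in WT. The groups did not overlap, with means of 43.2 ± 1.34% in the labelled knockout and 55.4 ± 2.24% in WT (SD, n = 3 each). Scp2 made up 37.8% of the peroxisomal sum in the labelled knockout and 58.2% in WT. With Scp2 and the most abundant mitochondrial gene, Etfb, left out together, the shares were 38.3, 33.8 and 35.8% in the labelled knockout and 40.8, 35.7 and 37.5% in WT, and the groups overlapped. Within the peroxisomal spiral the bifunctional enzymes changed places: Ehhadh stood at 2.1, 1.13 and 1.53 times Hsd17b4 in the labelled knockout, against 0.375, 0.35 and 0.326 times in WT. Ehhadh against mitochondrial Hadha gave ratios of 1.4, 0.782 and 0.945 in the labelled knockout and 0.441, 0.362 and 0.358 in WT. These ratios are descriptions of chosen genes and carry no test.

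**Figure D3:**
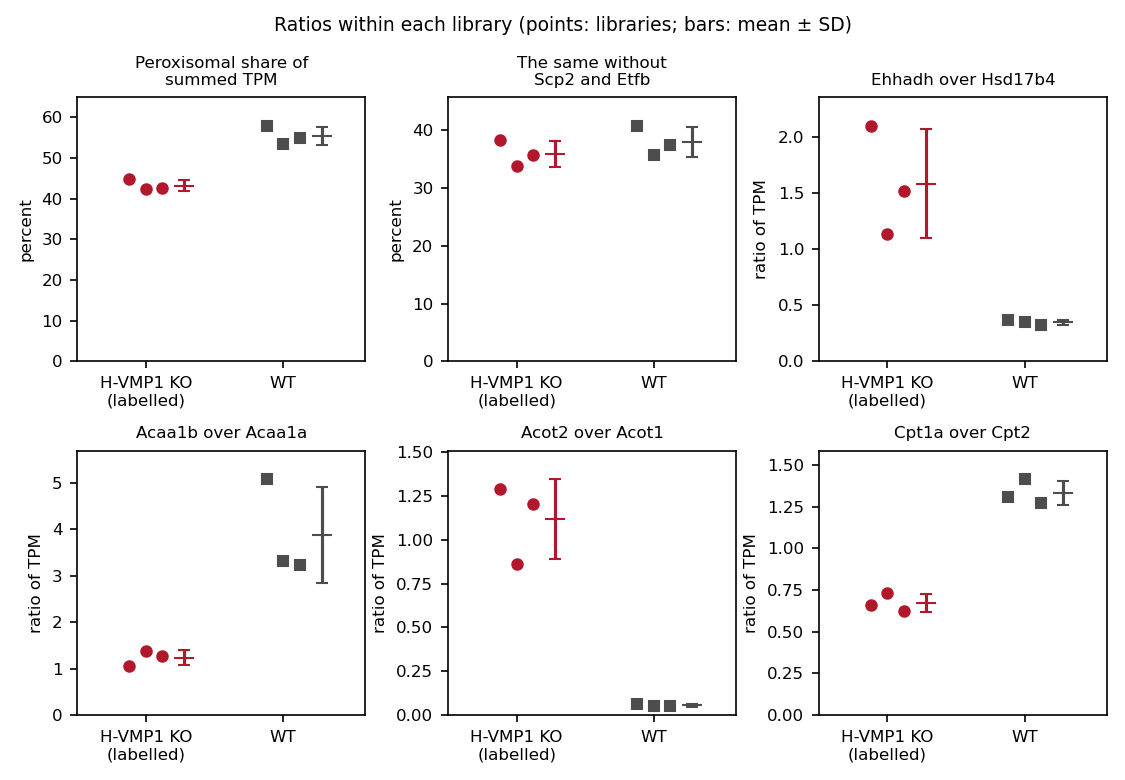
Ratios formed inside each library, which do not depend on the scaling between libraries, for 3 labelled H-VMP1 KO libraries (red, left) and 3 WT libraries (grey, right), with mean ± SD beside the points and all axes from 0. The peroxisomal share is lower in the labelled knockout (42.3 to 44.7%, against 53.5 to 57.9% in WT) and overlaps once Scp2 and Etfb are left out; the ratios of Ehhadh to Hsd17b4 and Acot2 to Acot1 are higher, and those of Acaa1b to Acaa1a and Cpt1a to Cpt2 lower.

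Other peroxisomal metabolism genes also fell more often than they rose. Of 28 tested further peroxisomal metabolism genes, 17 fell and 6 rose, where 10.7% of all tested genes fell and 74.5% rose, and their median was -0.94. With median-of-ratios scaling 23 were lower and 3 higher, where 35.6% and 36.2% of all tested genes were. Nudt7, which hydrolyses coenzyme A in peroxisomes, was at 69.1, 83.6 and 79.5 TPM in the labelled knockout, against 804, 586 and 773 TPM in WT, a log2 fold change of -3.19 ± 0.14. Urate oxidase gene Uox was at 105, 193 and 86.4 TPM in the labelled knockout, against 1196, 1487 and 1228 TPM in WT (-3.42 ± 0.29), and glycolate oxidase gene Hao1 at 5.99, 18.8 and 6.45 TPM in the labelled knockout, against 135, 131 and 135 TPM in WT (-3.74 ± 0.42). The adjusted p of these 3 ranged from 8.03e-08 to 0.000366. Of 18 peroxisome biogenesis and division genes 5 fell and 4 rose, with a median of 0.06, against the same 10.7% and 74.5%. With median-of-ratios scaling 15 were lower and 0 higher, against 35.6% and 36.2%. The division GTPase Dnm1l, shared with mitochondria, was at 24.9, 22.1 and 23.5 TPM in the labelled knockout, against 11.7, 11.4 and 11.1 TPM in WT, and its membrane adaptors Mff and Fis1 rose by 0.98 and 0.95. All 3 were near 0 and uncalled with median-of-ratios scaling (0.12, 0.08 and 0.04).

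Of 31 further fatty acid genes tested, mostly mitochondrial, 14 fell and 12 rose, where 10.7% of all tested genes fell and 74.5% rose, with a median of -0.06. The list also takes in synthetases, thioesterases and carriers whose products act wholly or partly outside mitochondria, so its counts do not describe a single organelle. With median-of-ratios scaling 22 were lower and 2 higher, where 35.6% and 36.2% were. Acot9, another mitochondrial thioesterase, was at 28.6, 27.2 and 28.8 TPM in the labelled knockout, against 1.26, 1.47 and 1.22 TPM in WT (3.66 ± 0.10, adjusted p = 7.36e-09). Acsl4, the acyl-CoA synthetase that prefers arachidonate, was at 54.2, 53.3 and 59 TPM in the labelled knockout, against 9.36, 10.2 and 9.56 TPM in WT (2.40 ± 0.09, adjusted p = 4.34e-08). Both stayed higher with median-of-ratios scaling (2.94 and 1.53), which places Acsl4 and Acsl1 on opposite sides of no change. Acsm3, a medium-chain synthetase, was at 5.84, 8.53 and 7.1 TPM in the labelled knockout, against 40.0, 52.6 and 40.4 TPM in WT (-2.48 ± 0.15, adjusted p = 5.41e-07).

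PPARalpha targets outside the 38 genes did not move as 1 group. Of 21 tested, 10 fell and 8 rose, where 10.7% of all tested genes fell and 74.5% rose, with a median of -0.53. With median-of-ratios scaling 13 were lower and 7 higher, where 35.6% and 36.2% were. Cyp4a10, a fatty acid omega-hydroxylase, was at 8.64, 12.2 and 8.33 TPM in the labelled knockout, against 164, 208 and 153 TPM in WT. Pdk4, a kinase that restrains pyruvate use, was at 22.2, 13.9 and 31.3 TPM in the labelled knockout, against 2.27, 1.07 and 0.88 TPM in WT, and Hilpda, an inhibitor of triglyceride lipolysis, at 31.7, 31.3 and 35.1 TPM in the labelled knockout, against 1, 1.08 and 0.98 TPM in WT. Their fold changes were -4.04 ± 0.16, 3.26 ± 0.34 and 4.06 ± 0.10, each called with adjusted p from 6.14e-09 to 0.000139. With median-of-ratios scaling they were -4.91, 2.55 and 3.37, all still called.

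**Figure D4:**
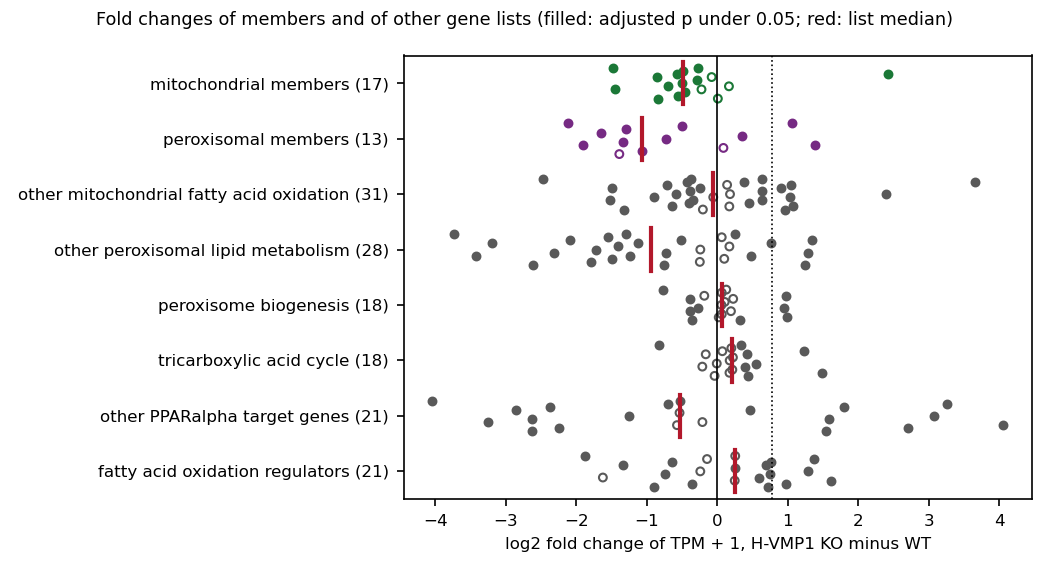
Log2 fold changes (H-VMP1 KO minus WT, TPM as deposited) of the mitochondrial and peroxisomal genes of the 38 and of 6 further lists, 1 point per tested gene, filled where adjusted p was under 0.05, with the median of each list as a red bar. The median is lowest for the peroxisomal genes (-1.07) and highest for the regulators (0.25), and the median of each list lies left of the dotted line at 0.77, the median of all tested genes.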

How the data were processed

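Livers were snap-frozen and their total RNA, prepared with Trizol, was sequenced, per the labels' protocols. The authors deposited 1 table of TPM values. Tools listed, without role or order, per the submitters' processing notes are RSEM, edgeR and STAR 2.6.1c, with build mm10. Neither read length nor strand setting is given in the sources used here. Each column named 1 sample title, and 0 columns were left over. Because TPM sums to a fixed total, a change in very abundant genes moves all other values.

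The 12796 genes that reached 1 TPM in 3 or more libraries were fitted as log2(TPM + 1) with limma 3.58.1 in R 4.3.3 (trend, robust), with Benjamini-Hochberg adjustment at 0.05 and no replicate block. The procedure was tested on simulated data. Members, organelles, lists and tests were chosen with earlier results of these data known. Same-numbered libraries did not deviate together, so the replicate numbers were not used as pairs. Gene positions are from GENCODE M21 (GRCm38), transcripts were aligned with Biopython 1.88, and promoters are from RefSeq. Of list members, Mmut and Tf are not analysed here. All members are accounted for, with up to 4 called genes per role given in full. The text names up to 3 called genes per further list with the largest change and a mean of at least 5 TPM, and figures were drawn with matplotlib 3.10.9. Protein sequences were not used here. Alternatives changed pseudocount, filter, scaling, variance model, threshold and block, or dropped 1 library at a time.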

Additional observations from a re-analysis of the deposited data

How the results depend on the processing

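The count of 26 lower members held within 24 to 34 under every alternative, and without each library in turn it was 24 to 26. Scaling changed the higher calls: with median-of-ratios scaling the 4 higher members became 2, the 3 higher peroxisomal members became 1, and Acox2 lost its call. Acox2 kept its call with quantile normalization and with the rescaled values. Leaving out each library gave 3 to 5 higher members, 10 to 12 lower and 1 to 2 higher mitochondrial members, and 8 to 9 lower and 2 to 4 higher peroxisomal members. The single higher mitochondrial gene was joined by Acads without WT replicate 2. Over all genes, 1369 lower and 9537 higher calls became 4552 and 4634 with median-of-ratios scaling, 4534 and 4520 with quantile normalization, and 2234 lower rescaled without mitochondrially encoded, Mup and the 20 most abundant genes. Without each library in turn there were 1135 to 1341 lower and 7585 to 9599 higher. Signs turned for 5 members: with median-of-ratios, quantile and, where given, the rescaled values, Crat was -0.35 and -0.25, Acads -0.74, -0.44 and -0.22, Hadha -0.90, -0.45 and -0.38, Pex11a -0.81, -0.57 and -0.30, and Acot8 -0.50, -0.43 and -0.0074. With 1 library left out Hadha ranged from -0.073 to 0.066 and Pex11a from -0.091 to 0.315. Acot3 was not called as deposited and was called under 8 planned settings other than those leaving out a library. The peroxisomal share differed by -12.2 percentage points, by -13.2 to -11.0 without each library in turn, and by -2.06 without Scp2 and Etfb; the cause was not tested.

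The shared replicate numbers showed no sign of pairing the samples: deviations of same-numbered libraries correlated at 0.0762, 0.0397 and -0.115. Those of unlike-numbered libraries correlated at -0.143 to 0.0985. So few correlations cannot exclude a pairing. With the replicate block 25 members were lower and 4 higher, Acadvl and Acadl lost their calls and Acot3 gained a call. Depth is unknown, so no detection limit can be given for Acot3, the least abundant member in the labelled knockout, or for Acot2, the least abundant in WT.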

Other observations

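Regulators of fatty acid oxidation other than Ppara moved both ways. There were 10 increases and 6 decreases among 21 tested genes, where 74.5% of all tested genes rose and 10.7% fell. Under median-of-ratios scaling 4 were higher and 13 lower, where 36.2% and 35.6% of all tested genes were. The other PPAR genes rose while Ppara fell: Ppard was at 9.85, 7.06 and 9.17 TPM in the labelled knockout, against 2.09, 2.25 and 2.11 TPM in WT (1.61 ± 0.13, limma adjusted p = 1.99e-06), and Pparg at 13.2, 11.4 and 14.8 TPM in the labelled knockout, against 4.04, 6.29 and 3.34 TPM in WT (1.37 ± 0.19, adjusted p = 0.00015). Both remained higher after median-of-ratios scaling, at 0.88 and 0.57. Klf15, a transcription factor of fasting metabolism, was at 19.2, 29.1 and 18.9 TPM in the labelled knockout, against 66.3, 105 and 82 TPM in WT (-1.87 ± 0.21, adjusted p = 6.67e-05). Summed macrophage markers were at 1749.9 to 2257 TPM in the labelled knockout, against 167 to 279 TPM in WT, and the part of other cell types in these values was not tested.

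The tricarboxylic acid cycle, which burns the acetyl units made by fatty acid oxidation, had 7 of 18 genes higher, 1 lower and 10 not called, where 74.5% of all tested genes rose and 10.7% fell. With median-of-ratios scaling 2 were higher and 16 lower, where 36.2% and 35.6% were. Citrate synthase gene Cs was at 117, 107 and 127 TPM in the labelled knockout, against 44, 43.5 and 36.2 TPM in WT (1.48 ± 0.11, adjusted p = 1.68e-06), and malate dehydrogenase gene Mdh2 at 378, 459.8 and 450.0 TPM in the labelled knockout, against 173, 197 and 176 TPM in WT (1.23 ± 0.12, adjusted p = 6.70e-06). These were the 2 that stayed higher, at 0.58 and 0.32. The fumarase gene Fh1 was at 100.4, 145 and 95.8 TPM in the labelled knockout, against 206, 198 and 192 TPM in WT and fell by 0.83 (adjusted p = 0.000653).

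Exons of 14 of the 38 genes overlap another annotated gene, and 2 share more than 20% of their exon bases. Besides Acadvl, this is Etfb, of which 53% lies within the same-strand gene Gm45233, at 0.217 TPM in the labelled knockout and 0.17 TPM in WT.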
